A study of Mus musculus with 9 samples.

Results

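Chromatin accessibility was examined at 878 ATAC-seq peaks whose centre lay within 50 kb of an olfactory receptor gene, out of 146734 peaks in all (0.598%). A peak was taken when its nearest receptor gene, read from the symbols in the RefSeq table for GRCm38.p6 (those starting with Olfr, or with Or and a digit), was no farther than that limit. This rule used coordinates and symbols and not the measured values, though the members and lists were chosen with earlier results of these data known. The cells were D2A1-d, a mouse breast carcinoma line, cultured in serum-containing medium and transduced with a short hairpin RNA. The 3 groups were shMed4 #1 and shMed4 #4, which carry different hairpins against Med4, and NTC, which carries a non-targeting control hairpin, with 3 libraries each. The shMed4 libraries carry the genotype label Med4 Knockdown and the NTC libraries WT, and all 9 are labelled Untreated. Whether transduced cells were cloned or kept as a pool is not stated in the labels. The Med4 protein belongs to Mediator, a large complex through which transcription factors act on RNA polymerase II. Knockdown of Med4 itself is not read by accessibility and was not tested here.

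Olfactory receptors are G protein-coupled receptors that detect odorants. Each mature olfactory sensory neuron transcribes a single receptor allele, chosen from a family whose genes lie in tandem clusters on most chromosomes. In other cell types the clusters are mostly silent and are packed in heterochromatin that is poor in open sites. Genes of other families are scattered within and beside the clusters, so a peak near a receptor gene need not belong to one.

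In ATAC-seq a transposase cuts and tags accessible DNA, and the deposited values are normalised read counts per peak. The libraries held 44.8 to 98.9 M reads in peaks, and the receptor peaks took 0.519% to 0.528% of them. All 878 receptor peaks passed the filter on low values (a mean of at least 10 over 9 libraries) and were tested. Replicates are labelled as biological, without saying how they were separated, so the p-values cover only the spread among these libraries, which may be technical. Gene-end peaks, whose centre is at most 1 kb from the start or end of a coding gene, were found for 1 of 4 epithelial markers (Krt18, with none at Krt8, Epcam or Cdh1) and for both mesenchymal markers, Vim and Zeb1. Of 5 olfactory neuron markers 2 had such a peak, Omp and Adcy3, as did 1 of 4 immune markers (Lyz2) and 1 of 2 endothelial markers (Cdh5). For the mean of both hairpins against NTC the log2 folds were 1.33 ± 0.079 (SE, adjusted p = 5.5e-17) at Krt18, -0.43 ± 0.042 (SE, adjusted p = 5.7e-11) at Vim, 0.0012 ± 0.12 (SE, adjusted p = 0.99) at Zeb1, -0.72 ± 0.13 (SE, adjusted p = 9.9e-06) at Lyz2 and 0.55 ± 0.079 (SE, adjusted p = 2.8e-07) at Cdh5. The part of such shifts in the receptor results was not tested.

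A promoter is called open here where a peak overlaps its window, and few receptor windows were overlapped. RefSeq promoter windows (250 bases before to 50 after the gene's start) were found for 944 receptor genes, and 10 of their 948 windows (1.05%) were overlapped by a peak, against 36.1% of all 32851 windows. The 10 belonged to Olfr550, Olfr373, Olfr370, Olfr9, Olfr763, Olfr222, Olfr49, Olfr128, Olfr1474 and Olfr1500. In the windows of Olfr373, Olfr128, Olfr1474 and Olfr1500 the 50 bases after the gene's start begin with ATG. There the recorded start may be a start codon, and the window may miss the promoter. Receptor windows beyond the 10 were not checked for this, so the shares are of windows and not of promoters. The following 5 windows are shown 5′ to 3′ on the gene's strand because Olfr49, Olfr222 and Olfr373 have the strongest peaks of the 10, and Olfr550 and Olfr1474 were added after their values were seen. Capitals mark matches, on either strand, to TGANTCA (the AP-1 motif) in Olfr550, Olfr222 and Olfr49, to TATAAA in Olfr373, and to TAATTA (a homeodomain motif) in Olfr1474.
Olfr550: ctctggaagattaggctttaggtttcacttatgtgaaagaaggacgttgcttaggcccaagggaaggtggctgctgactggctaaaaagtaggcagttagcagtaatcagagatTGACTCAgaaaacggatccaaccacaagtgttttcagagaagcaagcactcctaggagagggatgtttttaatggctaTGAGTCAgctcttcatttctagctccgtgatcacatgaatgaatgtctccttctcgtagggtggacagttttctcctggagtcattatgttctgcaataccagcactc
Olfr222: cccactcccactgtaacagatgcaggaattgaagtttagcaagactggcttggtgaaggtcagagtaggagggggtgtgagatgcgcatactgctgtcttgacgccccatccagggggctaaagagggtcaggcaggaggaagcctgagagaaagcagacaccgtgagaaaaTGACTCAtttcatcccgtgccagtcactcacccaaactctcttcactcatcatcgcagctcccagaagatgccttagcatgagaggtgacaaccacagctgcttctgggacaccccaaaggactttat
Olfr49: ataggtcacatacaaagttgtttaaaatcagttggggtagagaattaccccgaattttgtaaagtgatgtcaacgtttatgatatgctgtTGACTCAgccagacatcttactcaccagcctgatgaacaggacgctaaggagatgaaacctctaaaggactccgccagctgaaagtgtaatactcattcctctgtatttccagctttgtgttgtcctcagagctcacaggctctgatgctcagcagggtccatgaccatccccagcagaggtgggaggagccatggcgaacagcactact
Olfr373: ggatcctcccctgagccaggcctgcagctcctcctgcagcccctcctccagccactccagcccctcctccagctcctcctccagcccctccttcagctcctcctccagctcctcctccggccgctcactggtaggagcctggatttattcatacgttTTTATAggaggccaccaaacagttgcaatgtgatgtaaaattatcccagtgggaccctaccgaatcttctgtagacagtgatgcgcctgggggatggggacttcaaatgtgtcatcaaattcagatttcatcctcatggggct
Olfr1474: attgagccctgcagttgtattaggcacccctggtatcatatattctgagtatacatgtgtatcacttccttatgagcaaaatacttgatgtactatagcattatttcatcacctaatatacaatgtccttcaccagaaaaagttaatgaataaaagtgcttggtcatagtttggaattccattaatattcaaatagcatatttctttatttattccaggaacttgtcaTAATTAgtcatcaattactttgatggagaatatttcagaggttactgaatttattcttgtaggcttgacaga
These windows lie on GRCm38.p6 at chr7:102578219-102578518, plus strand, for Olfr550, chr11:59571689-59571988, minus strand, for Olfr222, chr14:54282876-54283175, minus strand, for Olfr49, chr8:72099512-72099811, plus strand, for Olfr373, and chr19:13470722-13471021, plus strand, for Olfr1474.

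The AP-1 motif stood in 3 of the 10 open windows, in 13.5% of all receptor windows and in 7.81% of all windows. TAATTA stood in 1 of the 10, in 18.6% of receptor windows and in 5.29% of all windows. TATAAA stood in 2 of the 10, in 41.0% of receptor windows and in 13.6% of all windows. GGGCGG (the Sp1 motif) and the EBF motif (TCCC and GGGA parted by any 2 bases) stood in 0 of the 10. The GGGCGG letters were found in 1.06% of receptor windows and 35.7% of all windows, and the EBF motif in 0.527% and 0.904%. Both strands were searched. The median GC content was 35% in receptor windows and 52.7% in all windows, and was 46.2% in the 10 open ones. The windows of Olfr9 and Olfr763 are close to identical, so reads there may be split between copies.

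The receptor clusters held few open sites in these cells. Of 1428 receptor genes, 47% had a peak centre within 50 kb, 5.74% within 1 kb and 3.22% inside the gene, against 92.6%, 78.7% and 70.3% of 20517 other protein-coding genes. The 1428 include 318 pseudogenes and other entries, while the comparison holds coding genes only. By these counts a longer gene is more likely to hold a peak, and gene length was not matched. Single receptor genes such as Olfr49 span only 0.001 Mb. Receptor territory, the 36.3 Mb within 50 kb of a receptor gene, held 24.2 peaks per Mb, against 57.3 per Mb over the whole span of the peaks. Territory of the vomeronasal receptors, a separate chemosensory family that is also clustered, held 13 per Mb. The median receptor peak had an NTC value of 155.8, against 183.7 for all tested peaks. Receptor peaks in NTC ranged between 7.76 and 6658. Only 310 of the 878 had a receptor gene as their nearest gene of any kind, and 49 lay inside a receptor gene.

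Values at the 3 strongest open promoters, those of Olfr49, Olfr222 and Olfr373, did not share a direction. The peak at the Olfr49 promoter (chr14:54282743-54283244) had normalised read counts of 571, 604 and 579.9 in shMed4 #1 libraries and 362, 330.0 and 353 in shMed4 #4 libraries, against 328, 293 and 260.2 in NTC libraries. All shMed4 libraries lay above all NTC libraries, the #1 libraries farthest, with log2 folds of 1.00 ± 0.085 (SE, adjusted p = 1.4e-12) for #1 and 0.25 ± 0.085 (SE, adjusted p = 0.013) for #4. The peak at the Olfr222 promoter had 209.7, 162 and 195 in shMed4 #1 libraries and 193, 237 and 215 in shMed4 #4 libraries, against 257, 261 and 281 in NTC libraries. Both shMed4 groups lay below all NTC libraries, and the log2 fold for the mean of both hairpins was -0.41 ± 0.10 (SE, adjusted p = 5.7e-04). Accessibility at the Olfr373 promoter was 67.6 ± 10.2 with #1 and 84.6 ± 23.5 with #4, against 114 ± 8.72 in NTC (SD, n = 3 each), a log2 fold of -0.61 ± 0.16 (SE, adjusted p = 0.0021), and 1 #4 library lay within the NTC range. Of the weaker ones, the Olfr550 peak, which covers its whole promoter window, had 67.2, 70.6 and 60.5 in shMed4 #1 libraries and 103, 72.9 and 67 in shMed4 #4 libraries, against 47.6, 49.3 and 33.5 in NTC libraries. That is a log2 fold of 0.74 ± 0.19 (SE, adjusted p = 0.0013), with every shMed4 library above every NTC library. The Olfr1474 peak had 39.2, 49.5 and 38.5 in shMed4 #1 libraries and 92.6, 72.9 and 97 in shMed4 #4 libraries, against 27.4, 47.2 and 33.5 in NTC libraries. All #4 libraries lay above all NTC libraries there and the #1 libraries overlapped NTC, with log2 folds of 1.28 ± 0.24 (SE, adjusted p = 3.4e-05) for #4 and 0.25 ± 0.24 (SE, adjusted p = 0.4) for #1.

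Over all receptor peaks, accessibility moved in both directions about as often as elsewhere in the genome. In such bulk libraries, fewer cells with an open site and a less open site in each cell cannot be told apart. For the mean of both hairpins against NTC, 235 of 878 receptor peaks were higher and 198 lower (limma on log2 of the normalised count plus 1, Benjamini-Hochberg adjusted p under 0.05 over all 146729 tested peaks), which is 49.3% called against 54.1% of all tested peaks. The shares by direction were 26.8% higher and 22.6% lower, against 27.9% and 26.2% over all tested peaks. With #1, 216 receptor peaks were higher and 184 lower (45.6% called, against 52.7% of all tested peaks, of which 27.9% were higher and 24.9% lower). With #4, 231 were higher and 197 lower (48.7% called, against 50.4%, of which 26.2% were higher and 24.3% lower). The median log2 fold was -0.022 for receptor peaks and -0.018 for all tested peaks. Both hairpins were called higher at 141 receptor peaks (16.1%, against 17.6%) and lower at 109 (12.4%, against 13.5%). Both comparisons share the NTC libraries, so these joint counts are a description. Changes of at least 2-fold were mostly gains, at 56 receptor peaks higher (6.38%, against 5.97%) and 4 lower (0.456%, against 0.96%).

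The balance of gains and losses rests on how the libraries are scaled. With libraries centred on the median of all tested peaks the split for the mean of both hairpins was 191 higher and 304 lower, and with libraries centred on gene-end peaks it was 277 higher and 125 lower. The same centrings gave 174 and 260, or 246 and 126, for #1, and 181 and 295, or 282 and 117, for #4. Between shMed4 and NTC libraries the median of all tested peaks differed by 0.094 and that of gene-end peaks by -0.076 (log2).

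With the deposited scaling, peaks closest to receptor genes were called higher more often than lower. Of the 49 peaks inside a receptor gene 17 were higher and 6 lower, and of the 262 outside a gene whose nearest gene of any kind was a receptor gene 78 were higher and 41 lower. Of the 568 nearest to another gene 140 were higher and 151 lower, and 1 of these also lies inside a receptor gene. The shares higher and lower were 34.7% and 12.2%, 29.8% and 15.6%, and 24.6% and 26.6% in that order. Over all tested peaks they were 27.9% and 26.2%. With libraries centred on all tested peaks the higher and lower counts were 15 and 11 inside receptor genes, 66 and 65 outside but nearest to one, and 110 and 228 nearest to another gene. With libraries centred on gene-end peaks they were 22 and 3, 88 and 29, and 168 and 93 in the same order of classes. Each centring shifts all peaks alike. These classes differ in height, with median values of 96.9 inside receptor genes, 113 outside but nearest to one and 225 nearest to another gene. Among peaks with a mean under 100, 28.4% of 285 receptor peaks were higher and 13.3% lower, against 22.6% and 18.6% of 41655 tested peaks. Among those of at least 100, 26.0% of 593 receptor peaks were higher and 27.0% lower, against 30.0% and 29.2% of 105074. These classes were formed after the values had been seen and carry no test. Vomeronasal receptor peaks, 396 in all with 19 shared, had 89 higher (22.5%) and 97 lower (24.5%). The 88 peaks near trace amine, taste and formyl peptide receptor genes, with 14 shared, had 31 higher (35.2%) and 7 lower (7.95%).

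**Figure D1:**
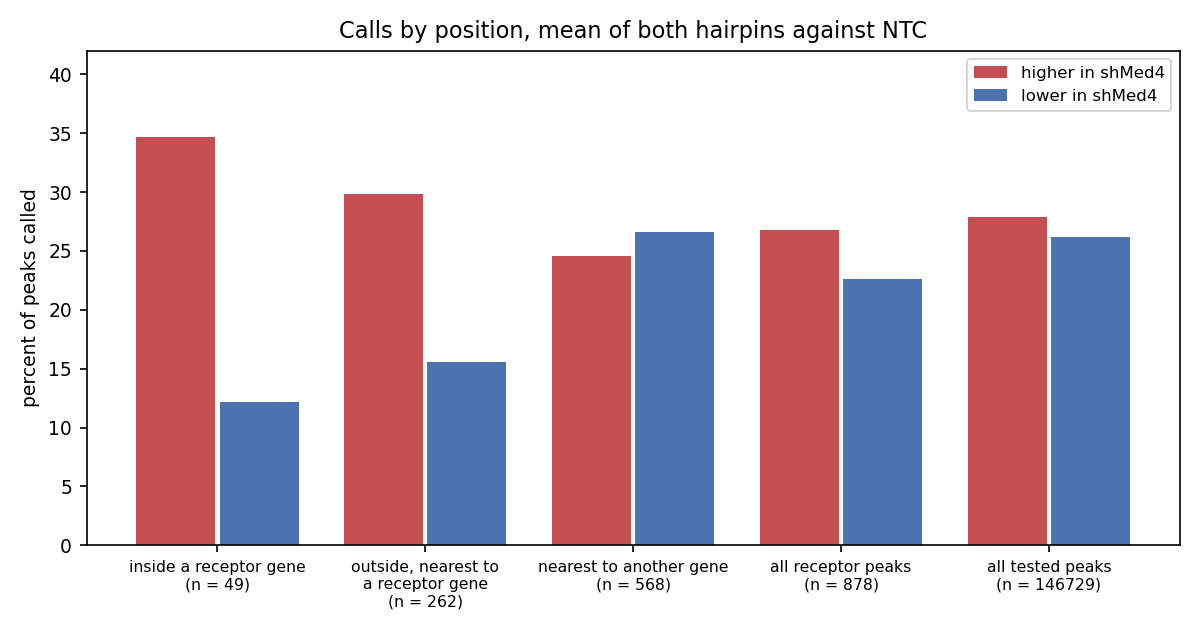
Percent of peaks called higher (red) or lower (blue) in shMed4 libraries, mean of both hairpins against NTC, by position relative to receptor genes; n is the number of tested peaks. Inside receptor genes 34.7% were higher and 12.2% lower, against 27.9% and 26.2% of all tested peaks, with the deposited scaling.

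The receptor genes fell into 65 clusters or single genes when neighbours up to 1 Mb apart were joined, and 24 of these held at least 10 tested peaks (727 peaks together). Median log2 folds of the 24 for the mean of both hairpins ran between -0.34 and 0.43. The median was above 0 in 11 of them, in 5 with libraries centred on all tested peaks and in 14 with libraries centred on gene-end peaks. For the mean of both hairpins 16 of the 24 lay within 0.1 of their flank, the peaks 50 kb to 1 Mb from the nearest receptor gene of the cluster. Opposite departures with the 2 hairpins can cancel in that mean. Olfr1379-ps1 to Olfr1374-ps1, 1 of the 16, lay -0.18 from its flank with #1 and 0.29 with #4. The other 35 clusters and single genes with peaks held 1 to 9 each, with medians between -0.91 and 2.10, and 6 held none. Of the receptor peaks, 709 had a protein-coding receptor gene as their nearest receptor gene.

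**Figure D2:**
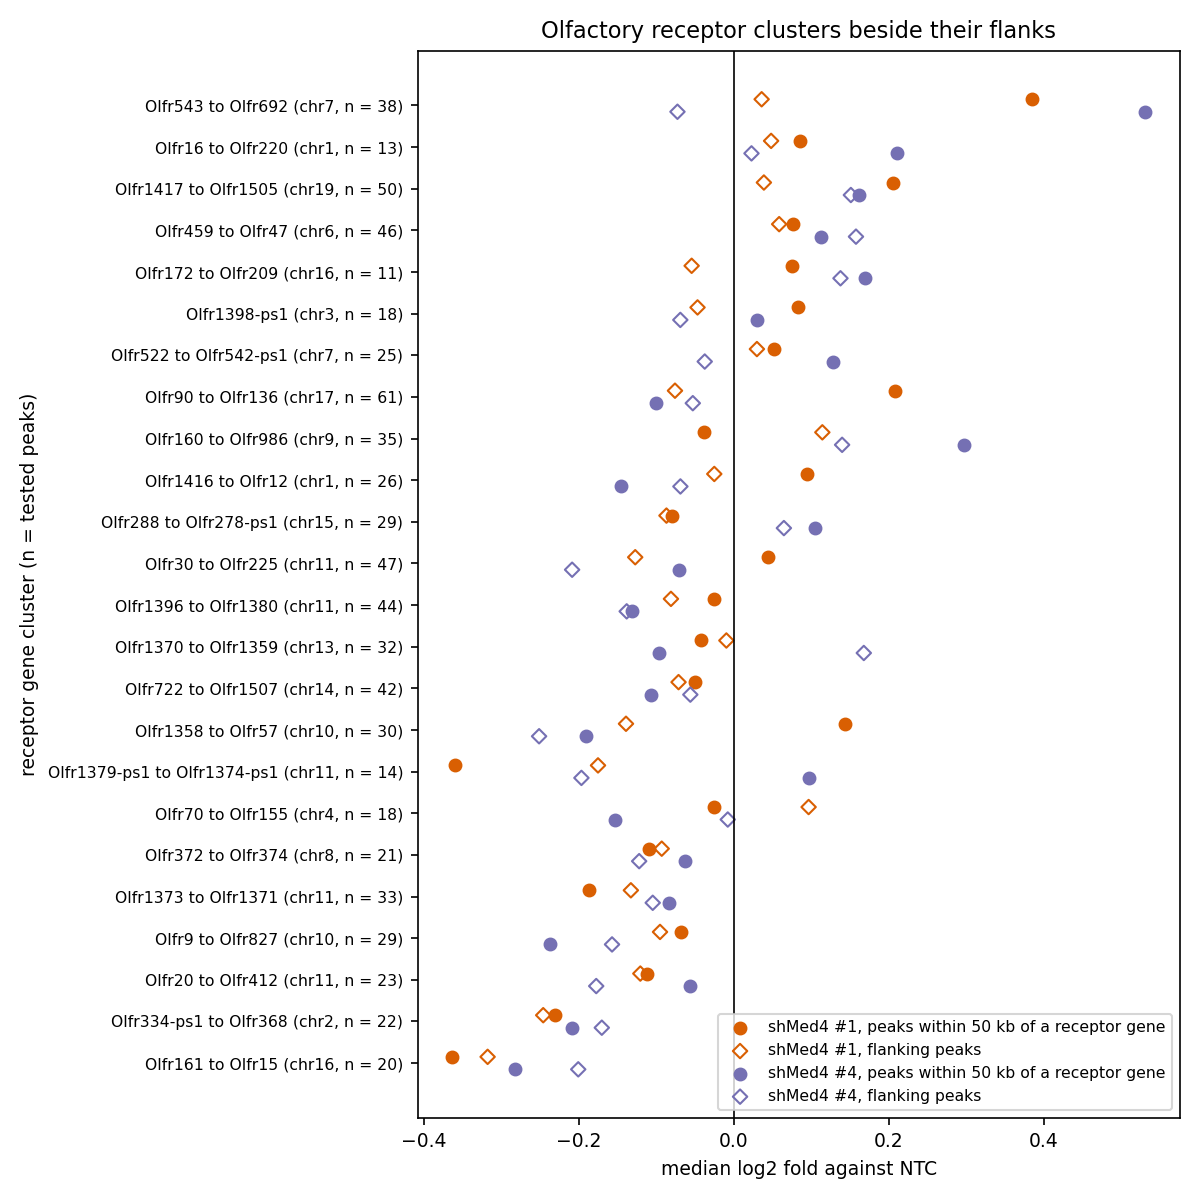
Median log2 fold against NTC for each of the 24 receptor clusters with at least 10 tested peaks (filled circles) and for its flanking peaks (open diamonds), with shMed4 #1 in orange and shMed4 #4 in violet. The Olfr543 to Olfr692 cluster lies farthest right with both hairpins, at 0.38 for #1 and 0.53 for #4, while its flank lies near 0.

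Of the 24 clusters with at least 10 tested peaks, the one farthest above its flank was Olfr543 to Olfr692 on chromosome 7, 158 receptor genes over 2.89 Mb that surround the beta-globin genes. Of its 38 peaks 20 were higher and 1 lower for the mean of both hairpins, and 16 were higher with both hairpins and 0 lower with both. The median log2 fold was 0.38 with #1 and 0.53 with #4, against 0.036 and -0.073 in its 152 flanking peaks. It stayed above 0 under every scaling run, between 0.34 and 0.51 for the mean of both hairpins. In that flank 34.2% of peaks were called. The cluster's peaks were weak in NTC, with a median of 63.6, the lowest of the 24 clusters, against 155.8 over all receptor peaks. The part of this weakness in the cluster's gains was not tested.

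Within it, 8 neighbouring peaks from Olfr66 to Olfr665, spread over 1 Mb, were all higher with both hairpins. The first, chr7:103860818-103861319, lies near Hbb-y, an embryonic beta-globin gene, and had 413, 339.9 and 428 in shMed4 #1 libraries and 643, 649.7 and 693 in shMed4 #4 libraries, against 268, 273 and 279.8 in NTC libraries. Its groups were fully separated, with #4 highest, at log2 folds of 0.52 ± 0.084 (SE, adjusted p = 2.4e-06) for #1 and 1.27 ± 0.084 (SE, adjusted p = 1.6e-15) for #4. The peak 830 bp from Olfr65 had 70.4, 69.8 and 59.4 in shMed4 #1 libraries and 78.7, 46 and 56.4 in shMed4 #4 libraries, against 10.5, 20.5 and 19.6 in NTC libraries. Beside Olfr639, 1143 bp away, the counts were 69.6, 84.4 and 46.2 in shMed4 #1 libraries and 140.1, 109 and 93.5 in shMed4 #4 libraries, against 11.3, 25.7 and 23.7 in NTC libraries. Inside the pseudogene Olfr647-ps1 they were 50.4, 47.9 and 52.8 in shMed4 #1 libraries and 78.7, 80.6 and 79.4 in shMed4 #4 libraries, against 19.4, 20.5 and 9.82 in NTC libraries. At each of these sites every shMed4 library lay above every NTC library.

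The peak inside Olfr654 (chr7:104588233-104588734) had 77.6, 65.7 and 51.7 in shMed4 #1 libraries and 159, 164 and 127 in shMed4 #4 libraries, against 12.9, 12.3 and 18.8 in NTC libraries. It rose by 2.08 ± 0.24 (SE, adjusted p = 2.2e-09) on the log2 scale with #1 and by 3.28 ± 0.24 (SE, adjusted p = 2.6e-14) with #4. The last 3 lie near Olfr665 at Usp17la and Usp17lb, members of a family of near-identical deubiquitinase genes whose reads may be split between copies. The strongest of them, chr7:104861276-104861777, lies inside Usp17la and 19183 bp from Olfr665, and had 184, 240.1 and 180.4 in shMed4 #1 libraries and 165, 123 and 125 in shMed4 #4 libraries, against 29.1, 30.8 and 14.7 in NTC libraries. Its log2 folds were 3.02 ± 0.21 (SE, adjusted p = 4.9e-15) with #1 and 2.48 ± 0.21 (SE, adjusted p = 1.5e-12) with #4, and for the mean of both hairpins 2.75, the highest among the named peaks.

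All but the peak near Hbb-y were among the weakest sites of the NTC libraries. The median NTC mean over the 8 peaks was 16.7, and the other 7 lay between 10.8 and 24.9, below 25.2, the first percentile of NTC means. Of the 1468 tested peaks under that percentile 1106 (75.3%) were higher with both hairpins, and so were 12 of the 19 receptor peaks under it. The count of 8 is therefore not read as particular to the cluster. The strongest peak of the cluster, inside Cnga4 (chr7:105400145-105400646), had 3833, 3637 and 4008 in shMed4 #1 libraries and 3510.3, 3914 and 4034 in shMed4 #4 libraries, against 3658, 4031 and 4039 in NTC libraries, and all its groups overlapped.

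**Figure D3:**
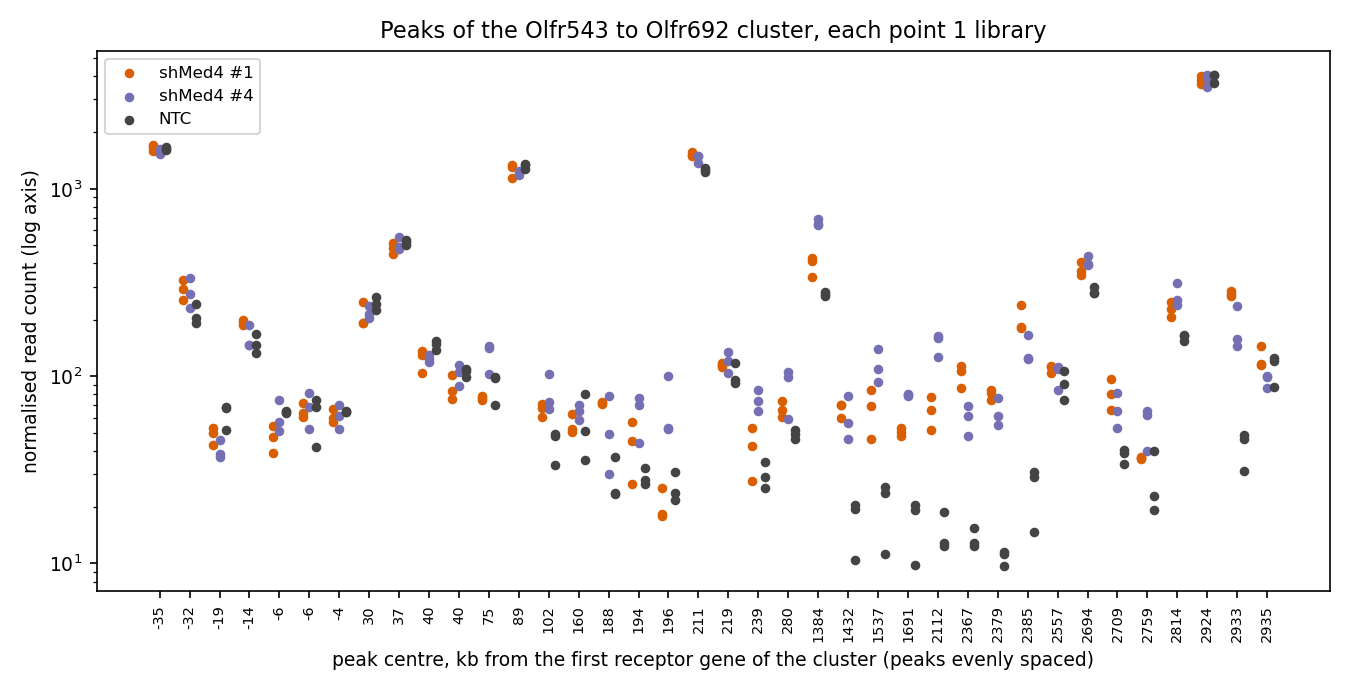
Normalised read count (log axis) of each of the 38 peaks of the Olfr543 to Olfr692 cluster, 1 point per library, in genome order, with shMed4 #1 in orange, shMed4 #4 in violet and NTC in dark grey. The 8 peaks between 1384 and 2385 kb have every shMed4 library above every NTC library.

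Of the other clusters, Olfr1417 to Olfr1505 on chromosome 19 (91 genes, 50 peaks) also held mostly gains, with 23 higher and 5 lower and medians of 0.21 for #1 and 0.16 for #4, against 0.039 and 0.15 in its flank. For the mean of both hairpins 43.7% of that flank was called in either direction, against 54.1% of all tested peaks. Olfr459 to Olfr47 on chromosome 6 had 19 higher and 5 lower among 46 peaks, with a median of 0.12 for the mean of both hairpins, the same as its flank. In the flank of Olfr459 to Olfr47 50.9% of peaks were called. Losses alone were called in Olfr161 to Olfr15 on chromosome 16, with 0 higher and 14 lower among 20 peaks and medians of -0.36 for #1 and -0.28 for #4. Its flank was also lower, at -0.32 and -0.20, and 72.8% of flanking peaks were called. The medians of these 3 clusters kept their sign under every scaling run, apart from Olfr459 to Olfr47 with #1, which came to -0.011 with libraries centred on all tested peaks.

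An 8-peak run on chromosome 7 near Olfr523 and Olfr524, in the cluster Olfr522 to Olfr542-ps1, was higher with both hairpins. It lies largely in Cd163l1, which encodes a scavenger receptor cysteine-rich protein, and not in receptor genes. The strongest of it, 1562 bp from Olfr524, had 1672, 1576 and 1549 in shMed4 #1 libraries and 1464, 1558 and 1550.5 in shMed4 #4 libraries, against 542, 498 and 574 in NTC libraries. Every shMed4 library lay above every NTC library, and the log2 fold was 1.54 ± 0.052 (SE, adjusted p = 2.1e-24).

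The hairpins differed from each other at many receptor peaks. For #4 against #1, 159 receptor peaks were higher and 170 lower, which is 37.5% called against 41.6% of all tested peaks, of which 20.4% were higher and 21.2% lower. Opposite calls against NTC were made at 23 receptor peaks, 12 of them higher with #1 and lower with #4 (1.37%, against 1.72%) and 11 lower with #1 and higher with #4 (against 1.45% of all tested peaks).

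Some clusters differed between the hairpins. In Olfr90 to Olfr136 on chromosome 17, next to the class I histocompatibility genes, 9 of 61 peaks were higher and 22 lower in #4 than in #1. For the same comparison 27.2% of its flanking peaks were called in either direction. The median there was -0.10 with #4 and 0.21 with #1, against -0.053 and -0.076 in the flank. The sign of each of these medians held under every scaling run, though with #4 it came to -0.0056 with libraries centred on gene-end peaks. From Olfr110 to Olfr116, 7 neighbouring peaks were all lower in #4 than in #1. The peak 904 bp from Olfr111 had 112, 148 and 132 in shMed4 #4 libraries and 302, 276 and 287 in shMed4 #1 libraries, against 180.0, 159 and 169 in NTC libraries. The #4 libraries lay below and the #1 libraries above all NTC libraries there, and the #4 to #1 log2 fold was -1.14 ± 0.12 (SE, adjusted p = 6.6e-10). The peak inside Olfr113 had 356, 385 and 356 in shMed4 #4 libraries and 504, 525 and 523 in shMed4 #1 libraries, against 419, 460.1 and 426 in NTC libraries, with the same order of the groups and a log2 fold of -0.50 ± 0.076 (SE, adjusted p = 1.5e-06). The peak inside Olfr116 had 378, 375 and 425 in shMed4 #4 libraries and 554, 618 and 578 in shMed4 #1 libraries, against 517, 478 and 519.5 in NTC libraries, again in that order.

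**Figure D4:**
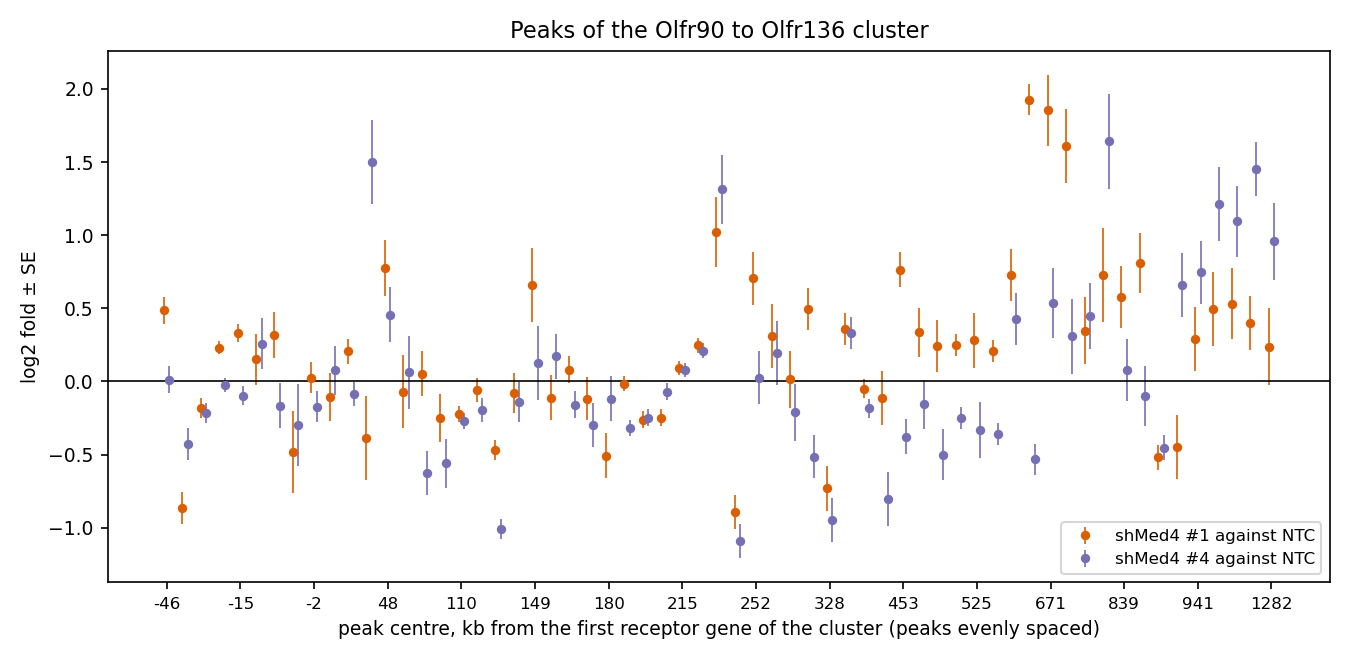
Log2 fold against NTC (± SE) of each of the 61 peaks of the Olfr90 to Olfr136 cluster in genome order, with shMed4 #1 in orange and shMed4 #4 in violet. The #4 points are called below the #1 points at 22 peaks and above them at 9; at the Olfr121 peak #4 is at -0.53 and #1 at 1.93.

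The opposite order was found on chromosomes 11 and 9. In Olfr1379-ps1 to Olfr1374-ps1 on chromosome 11, 10 of 14 peaks were higher and 0 lower in #4 than in #1, while 41.8% of flanking peaks were called in either direction. Medians were 0.096 with #4 and -0.36 with #1, against -0.20 and -0.18 in the flank, and the #4 median fell to -0.0054 with libraries centred on all tested peaks. In Olfr160 to Olfr986 on chromosome 9 (127 genes), 14 of 35 peaks were higher and 3 lower in #4 than in #1, with medians of 0.30 for #4 and -0.039 for #1, against 0.14 and 0.11 in the flank. For #4 against #1, 32.9% of the flanking peaks of Olfr160 to Olfr986 were called in either direction. The #1 median of that cluster came to 0.018 with libraries centred on gene-end peaks. In the same cluster, 5 neighbouring peaks from Olfr229 to Olfr985 were higher in #4. The strongest, 1467 bp from Olfr983, had 551, 537 and 469 in shMed4 #4 libraries and 385, 384 and 356 in shMed4 #1 libraries, against 302, 289 and 334 in NTC libraries. The #4 libraries lay above all others, with a #4 to #1 log2 fold of 0.47 ± 0.084 (SE, adjusted p = 2.4e-05).

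Single peaks showed the hairpin difference more sharply. The peak 930 bp from Olfr121 (chr17:37753684-37754185) had 144, 149.6 and 109 in shMed4 #4 libraries and 745, 741 and 723 in shMed4 #1 libraries, against 186, 196 and 196 in NTC libraries. All #4 libraries lay below and all #1 libraries far above the NTC libraries, at a #4 to #1 log2 fold of -2.46 ± 0.10 (SE, adjusted p = 5.1e-20). Beside Olfr1351 the counts were 97.7, 134 and 81.1 in shMed4 #4 libraries and 309, 354 and 298 in shMed4 #1 libraries, against 161, 182 and 199.6 in NTC libraries, with #4 below and #1 above NTC and a #4 to #1 log2 fold of -1.64 ± 0.14 (SE, adjusted p = 3.9e-12). The peak in Ndufa10, a complex I subunit gene near Olfr1416, had 299, 266 and 226 in shMed4 #4 libraries and 844, 799.8 and 775 in shMed4 #1 libraries, against 336, 320.4 and 307 in NTC libraries, and its #4 to #1 log2 fold was -1.62 ± 0.087 (SE, adjusted p = 3.5e-17). The peaks at Olfr783-ps1 and Olfr478 followed at -1.49 and -1.28.

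In the other direction, the peak 7446 bp from Olfr295 (chr7:86577581-86578082) had 120.2, 104 and 118 in shMed4 #4 libraries and 23.2, 19.5 and 26.4 in shMed4 #1 libraries, against 23.4, 18.5 and 22.1 in NTC libraries. Only the #4 libraries stood apart, with a log2 fold of 2.27 ± 0.27 (SE, adjusted p = 8.5e-09) against #1, and 0.10 ± 0.27 (SE, adjusted p = 0.77) for #1 against NTC. Inside Zfp354a, a zinc finger gene near Olfr1375, the peak had 75.3, 110.0 and 81.1 in shMed4 #4 libraries and 27.2, 15.4 and 26.4 in shMed4 #1 libraries, against 88.8, 57.5 and 82.6 in NTC libraries, so that #1 was the low group, with a #4 to #1 log2 fold of 1.93 ± 0.25 (SE, adjusted p = 6.4e-08). At 68 bp from the pseudogene Olfr1543-ps1 the counts were 427, 386 and 411 in shMed4 #4 libraries and 162, 172 and 116 in shMed4 #1 libraries, against 121, 132 and 94.1 in NTC libraries, with #4 above every other library and a #4 to #1 log2 fold of 1.46 ± 0.13 (SE, adjusted p = 3.2e-11). The peaks near Olfr210-ps1 and Olfr959 had #4 to #1 log2 folds of 1.66 and 1.45.

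Further named peaks were called higher with both hairpins. The peak 30452 bp from Olfr375-ps1 on chromosome 3 (chr3:131868381-131868882), whose nearest coding gene outside the family, Dkk2, lies 216635 bp away, had 1586, 1576 and 1516 in shMed4 #1 libraries and 2115, 2085 and 1910.3 in shMed4 #4 libraries, against 324, 332 and 288 in NTC libraries. It was the tallest of the named gains, with the groups fully apart and a log2 fold of 2.50 ± 0.054 (SE, adjusted p = 4.9e-30). A peak 3543 bp from Olfr478 had 134, 142 and 116 in shMed4 #1 libraries and 56.2, 75.5 and 35.3 in shMed4 #4 libraries, against 19.4, 8.22 and 10.6 in NTC libraries, a log2 fold of 2.70 ± 0.25 (SE, adjusted p = 1.1e-11), with #1 highest. The peak 1000 bp from Cnga4, the gene of a modulatory subunit of the olfactory cyclic nucleotide-gated channel, had 276, 269 and 286 in shMed4 #1 libraries and 237, 159 and 145 in shMed4 #4 libraries, against 48.4, 46.2 and 31.1 in NTC libraries. Its shMed4 libraries lay far above the NTC level, at a log2 fold of 2.40 ± 0.15 (SE, adjusted p = 1.1e-16), unlike the tall peak inside Cnga4.

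The peaks near Olfr521 and Olfr1357 rose too. That near Olfr521 averaged 186 ± 15.3 with #1 and 112 ± 16.9 with #4, against 31.3 ± 2.62 in NTC. That near Olfr1357, 4609 bp from Ilvbl, averaged 637 ± 57.2 and 518 ± 60.3, against 133 ± 4.66 (SD, n = 3 each). Their log2 folds were 2.17 ± 0.15 (SE, adjusted p = 6.7e-15) and 2.10 ± 0.078 (SE, adjusted p = 4.6e-23), and neither had an overlap between shMed4 and NTC libraries.

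The largest loss was a peak 21942 bp from Olfr1441 on chromosome 19 (chr19:12444959-12445460), inside a cluster where most calls were gains. It had 56.8, 38.9 and 55 in shMed4 #1 libraries and 148, 129 and 118 in shMed4 #4 libraries, against 242, 263 and 256 in NTC libraries. The #1 libraries were lowest and the groups did not overlap, with log2 folds of -2.33 ± 0.16 (SE, adjusted p = 1.9e-15) for #1 and -0.95 ± 0.16 (SE, adjusted p = 3.7e-06) for #4. A peak inside Pdxk, the pyridoxal kinase gene near Olfr1358, had 65.6, 71.4 and 95.7 in shMed4 #1 libraries and 92.6, 113 and 122 in shMed4 #4 libraries, against 221, 195 and 239 in NTC libraries, a log2 fold of -1.25 ± 0.14 (SE, adjusted p = 6.6e-10). The peak 5054 bp from Olfr1373 had 107, 128 and 113 in shMed4 #1 libraries and 272, 302 and 277 in shMed4 #4 libraries, against 386, 341 and 361 in NTC libraries. It fell with both hairpins, with log2 folds of -1.63 ± 0.10 (SE, adjusted p = 6.2e-16) for #1 and -0.35 ± 0.10 (SE, adjusted p = 0.0053) for #4.

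Beside Olfr103, 2975 bp away on chromosome 17, the counts were 174, 169.5 and 178 in shMed4 #1 libraries and 125, 156 and 176 in shMed4 #4 libraries, against 333, 314 and 323 in NTC libraries. Accessibility fell to about the same level with both hairpins, with a log2 fold of -0.99 ± 0.10 (SE, adjusted p = 1.2e-10). The peak 1849 bp from Olfr284 did likewise, at 163 ± 5.78 with #1 and 162 ± 31.1 with #4, against 304 ± 17.4 in NTC (SD, n = 3 each). The peaks near Olfr459, Olfr759-ps1 and Olfr266 had log2 folds of -1.25, -0.84 and -0.81. Of these, that near Olfr266 was the tallest of the named losses, with 1336, 1322 and 1319 in shMed4 #1 libraries and 971, 1079 and 1064 in shMed4 #4 libraries, against 2146, 2057 and 1954 in NTC libraries.

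**Figure D5:**
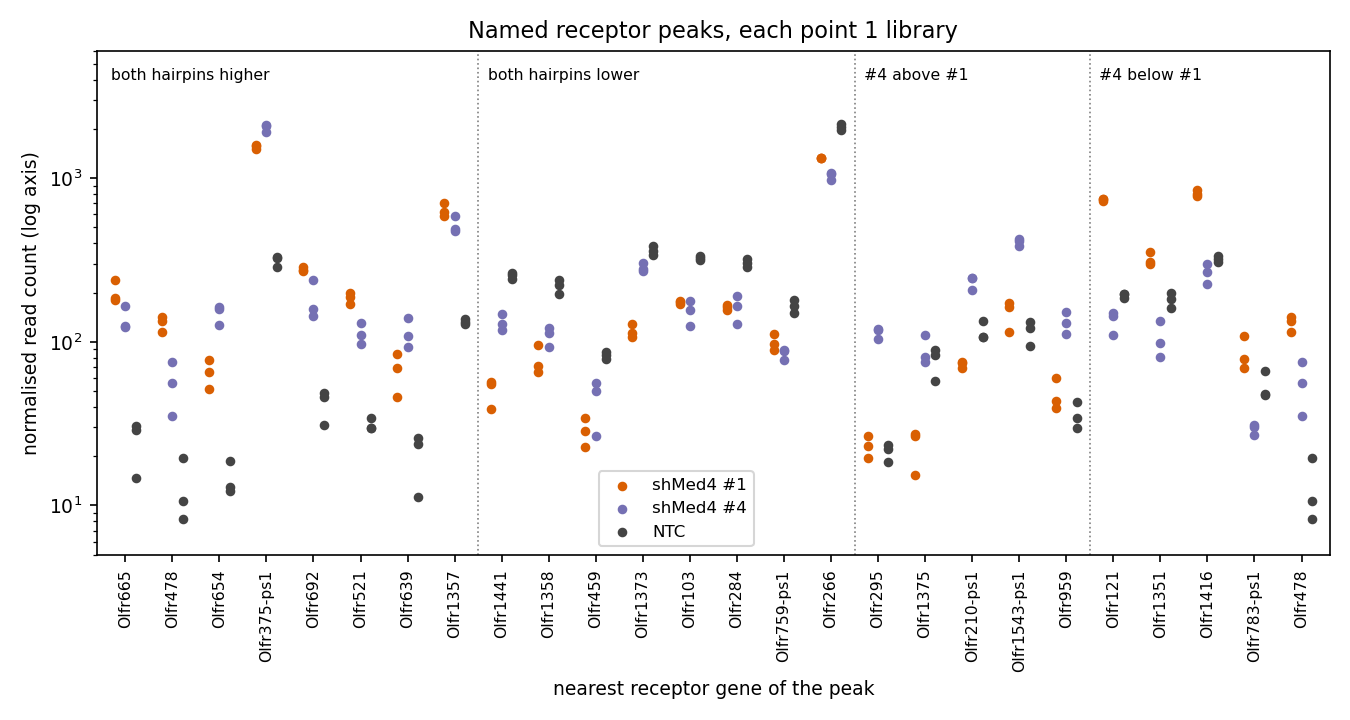
Normalised read count (log axis) of the named receptor peaks, 1 point per library, with shMed4 #1 in orange, shMed4 #4 in violet and NTC in dark grey; dotted lines part the peaks higher with both hairpins, lower with both, #4 above #1 and #4 below #1. At the Olfr121 peak the #1 libraries lie between 723 and 745, above all #4 and NTC libraries.

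The receptor peaks that were tallest in NTC changed little. The tallest, 8663 bp from Olfr9, had 5436, 4982 and 5218 in shMed4 #1 libraries and 5396, 5567 and 5731 in shMed4 #4 libraries, against 6582, 6789 and 6602 in NTC libraries. It was lower in every shMed4 library than in every NTC library, by a log2 fold of -0.31 ± 0.038 (SE, adjusted p = 1.3e-08). The peaks near Olfr278-ps1, inside Kansl2, and at Olfr692, inside Cnga4, had -0.066 and -0.033, neither of them past the threshold for the mean of both hairpins. The peak 2852 bp from Olfr456, the tallest whose nearest gene is a receptor gene, had 4452, 4113 and 4209.7 in shMed4 #1 libraries and 5065, 5068 and 5599 in shMed4 #4 libraries, against 4257, 4421 and 4402 in NTC libraries. The #4 libraries lay above all others, with a log2 fold against NTC of 0.26 ± 0.047 (SE, adjusted p = 1.2e-05), and #1 was at -0.035 ± 0.047 (SE, adjusted p = 0.56). The mean of both hairpins, 0.12, passed the threshold but not without #1 replicate 1 (0.099) or NTC replicate 1 (0.098). The peak inside Olfr101 had 3866, 3696 and 3919 in shMed4 #1 libraries and 3592, 3990.3 and 3801 in shMed4 #4 libraries, against 3509, 3682 and 3582 in NTC libraries, with a log2 fold of 0.085 ± 0.041 (SE, adjusted p = 0.076), which passed the threshold without #4 replicate 1 (0.10). At the edge of the 50 kb limit, the last 3 peaks inside it, near Olfr266, Olfr55 and Olfr522, had log2 folds of 0.62, -0.022 and 0.44. The first 3 outside it, near Olfr334-ps1, Olfr1358 and Olfr47, had -0.54, 0.44 and 0.24.

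The largest receptor cluster was almost closed. Olfr987 to Olfr1274 on chromosome 2, 293 genes over 5.07 Mb, had 6 peaks, or 1.16 per Mb, 3 of them higher and 0 lower. The peak inside Olfr1033 had 46.4, 29.2 and 44 in shMed4 #1 libraries and 65.7, 61.4 and 35.3 in shMed4 #4 libraries, against 22.6, 32.9 and 34.4 in NTC libraries. The #4 libraries lay above NTC and the #1 libraries overlapped it, with a log2 fold of 0.60 ± 0.25 (SE, adjusted p = 0.04) for the mean of both hairpins. The peak 1824 bp from Olfr1261 had 60.0, 66.5 and 50.6 in shMed4 #1 libraries and 114, 81.9 and 88.2 in shMed4 #4 libraries, against 46, 45.2 and 49.1 in NTC libraries. Every shMed4 library lay above every NTC library there, with 0.99 ± 0.21 (SE, adjusted p = 1.3e-04) for #4 and 0.32 ± 0.21 (SE, adjusted p = 0.19) for #1. At Olfr1274, beside Ptprj, a receptor tyrosine phosphatase gene, the log2 fold was 0.40 ± 0.08 (SE, adjusted p = 5.9e-05).

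Genes that serve the receptors in olfactory neurons were mostly closed as well. Gene-end peaks were found for 5 of 13 transduction and trafficking genes (0 higher, 2 lower), against 12.1% higher and 41.0% lower among 16290 gene-end peaks, whose median log2 fold was -0.12 and that of the list -0.14. Each listed gene was read at its tallest gene-end peak, while the background holds every gene-end peak. Gnal, Cnga2, Cngb1 and Ano2, which encode the olfactory G protein and channel proteins, had none, nor had the trafficking genes Rtp1, Rtp2 and Reep1 or Stoml3. The channel subunit gene Cnga4 did have a gene-end peak, the tallest of the 5, with a mean of 3852 and a log2 fold of -0.033. At Adcy3, the adenylyl cyclase of the pathway, the peak had 79.6 ± 17.4 with #1 and 109.6 ± 13.6 with #4, against 203 ± 24.3 in NTC (SD, n = 3 each), a log2 fold of -1.12 ± 0.14 (SE, adjusted p = 1.1e-08). Ric8b, whose product helps the olfactory G protein fold, was at -0.14 ± 0.043 (SE, adjusted p = 0.0079), and Gng13, a G protein gamma subunit gene, at -0.26 ± 0.13 (SE, adjusted p = 0.086). The peak at Omp, the olfactory marker protein gene, lies inside Capn5. It had 135 ± 14.3 with #1 and 297 ± 18.1 with #4, against 189.5 ± 7.34 in NTC. It was lower with #1, by a log2 fold of -0.49 ± 0.11 (SE, adjusted p = 3.6e-04), and higher with #4, by 0.64 ± 0.11 (SE, adjusted p = 1.1e-05).

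Of 11 regulators of receptor choice 7 had a gene-end peak, 1 higher and 3 lower (median -0.17, against the same background), and Lhx2, Ebf2, Ebf3 and Emx2 had none. Ebf1, of the Ebf factors that bind receptor promoters and enhancers, had a log2 fold of 0.25 ± 0.064 (SE, adjusted p = 0.0013). The peak at Ddit3, a transcription factor gene of the unfolded protein response, lies inside Mbd6 and had -0.28 ± 0.044 (SE, adjusted p = 1.1e-06), and Ebf4, another gene of the Ebf family, -0.29 ± 0.086 (SE, adjusted p = 0.0047). All 13 genes of heterochromatin and the nuclear envelope had one, with 1 higher and 9 lower and a median of -0.14, against 12.1% higher, 41.0% lower and a median of -0.12 over all gene-end peaks. The peaks of this list were taller, with a median value of 1324 against 694.6 over all gene-end peaks, and small shifts pass the threshold more easily at tall peaks. Its share of calls is therefore not read as an excess. The largest fall was at Suv39h2, a histone H3 lysine 9 methyltransferase gene, with 521 ± 36.8 with #1 and 531 ± 17.8 with #4, against 722 ± 1.56 in NTC (SD, n = 3 each) and a log2 fold of -0.46 ± 0.06 (SE, adjusted p = 4.0e-08). Ehmt1, also an H3 lysine 9 methyltransferase gene, was at -0.36 ± 0.061 (SE, adjusted p = 3.8e-06) and Lmnb1, the lamin B1 gene, at -0.26 ± 0.048 (SE, adjusted p = 2.6e-05).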

How the data were processed

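Signal values, which are read counts per peak normalised by the authors with DESeq2 as the deposited table's name states, were used for 9 libraries. Tools given in the submitters' processing notes are BWA, Trim Galore, MACS2, Subread and featureCounts, with the builds mm10 and GRCm38; versions, peak merging and the handling of reads that map to several receptor copies are not given in the sources used here. Every value was a whole multiple of 1 step per library (100% within 0.001 of a read), so reads could be recovered.

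From these values, log2(normalised value + 1) was fitted with limma 3.58.1 in R 4.3.3 (lmFit, eBayes with trend), with a mean for each of 3 groups, over 146729 peaks after removal of 5 whose mean was under 10. A peak was called where its p, adjusted by Benjamini-Hochberg over all peaks, was under 0.05. On simulated data with 50 changed peaks per fold among 146729 for shMed4 against NTC, 80% of those changed 1.5-fold and 100% of those changed 2-fold were recovered. The simulation changed few peaks and gave all peaks 1 dispersion, while 54.1% of tested peaks were called in the data. Its rates therefore do not give the recovery in this fit or at weak receptor peaks. Library pairs were checked for duplicates by chi-square per degree of freedom, 1.99 to 2.92 within groups, and none was merged.

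A cluster is a run of receptor genes with gaps of at most 1 Mb. Medians and counts of clusters and lists carry no test. Coordinates are as deposited, with peaks of equal width (end minus start of 501); whether they count from 0 is not stated. Promoter sequences, with strand, are from RefSeq (GRCm38.p6).

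The members and lists were chosen with earlier results of these data known. Named peaks have a mean of at least 50, 1 per receptor gene: the 8 highest and 8 lowest folds called with both hairpins, the 5 highest and 5 lowest of #4 against #1, the 5 tallest in NTC, the 3 on each side of the limit and the 3 tallest at promoters; of each gene list the 3 lowest p are given. The result of 1 further gene list is not reported here. Runs of neighbouring peaks, height and position classes, motifs, the promoters of Olfr550 and Olfr1474, Omp, the count of clusters above 0, the scalings of that count and of the position classes, and other peaks shown within clusters were chosen after their values were seen. 1 fit gives the folds, p-values and calls of the report, except where another scaling, fit, threshold or library set is named. Alternatives changed the pseudocount, filter, scaling, threshold, fit, limit and library set, and used edgeR 4.0.16 and DESeq2 1.42.0 on recovered reads. Tables and figures were made with Python 3.11.15, pandas 2.3.3, numpy 2.4.6 and matplotlib 3.10.9.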

Additional observations from a re-analysis of the deposited data

Results flagged for a closer look

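The effects of the hairpins differed by a direct test of #4 against #1 at 159 receptor peaks that were higher and 170 that were lower. That is 37.5% of receptor peaks, against 41.6% of all tested peaks, so the difference is not particular to receptor peaks. The named peaks with the largest such differences had log2 folds of #4 over #1 of 2.27 near Olfr295, 1.93 near Olfr1375, 1.66 near Olfr210-ps1, 1.46 near Olfr1543-ps1 and 1.45 near Olfr959. In the other direction they were -2.46 near Olfr121, -1.64 near Olfr1351, -1.62 near Olfr1416, -1.49 near Olfr783-ps1 and -1.28 near Olfr478. Passing the adjusted threshold of limma for #4 against #1 was a condition for naming them, so it adds no support. At each of the 10 all #4 libraries lay on 1 side of all #1 libraries, which the choice of the largest folds favours. Groups of 3 libraries were not searched for single outlying libraries.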

How the results depend on the processing

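No named peak reversed under any alternative run; over named peaks and alternatives 926 calls stayed, 20 were lost (most under the 2-fold rule) and 9 were gained, and no call of a named peak changed with the replicate block. The fit with replicate number as a block gave 239 higher and 204 lower for the mean of both hairpins, 223 higher and 193 lower for #1, 233 higher and 207 lower for #4 and 164 higher and 180 lower for #4 against #1. Same-numbered libraries did not deviate together (correlations of -0.011 to 0.073), so the numbers were not taken as pairs. Leaving out 1 library at a time gave 209 to 245 higher and 158 to 205 lower for the mean of both hairpins, 187 to 225 higher and 142 to 199 lower for #1, 210 to 229 higher and 165 to 199 lower for #4 and 133 to 158 higher and 133 to 168 lower for #4 against #1.

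Counts moved by over 1.5 times mainly where the rule for a call or for membership changed, which alters them by construction. At least 2-fold changes gave 56 higher and 4 lower for the mean of both hairpins, 52 higher and 9 lower for #1, 70 higher and 6 lower for #4 and 26 higher and 14 lower for #4 against #1. An adjusted p under 0.01 gave 122 lower for #1. A limit of 10 kb gave 101 higher and 54 lower for the mean of both hairpins, 84 higher and 49 lower for #1, 108 higher and 61 lower for #4 and 70 higher and 60 lower for #4 against #1. A limit of 100 kb gave 384 higher and 350 lower for the mean of both hairpins, 359 higher and 319 lower for #1, 368 higher and 339 lower for #4 and 257 higher and 284 lower for #4 against #1. Peaks whose nearest gene of any kind is a receptor gene gave 95 higher and 47 lower for the mean of both hairpins, 75 higher and 47 lower for #1, 100 higher and 50 lower for #4 and 71 higher and 48 lower for #4 against #1. Centring on gene-end peaks left 125 lower for the mean of both hairpins and 117 for #4, and centring on all tested peaks gave 304 lower for the mean of both hairpins. By position, centring on all tested peaks gave 11 lower inside receptor genes, 65 lower outside but nearest to one and 228 lower nearest to another gene, and centring on gene-end peaks 3 lower inside and 93 lower nearest to another gene (chosen after seeing the data). The cause of the shift between centrings was not tested.

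Cluster medians for the mean of both hairpins moved by more than the largest SD of a group's library medians in 15 clusters with peaks nearest to receptor genes alone: 0.10 for Olfr16 to Olfr220, 0.11 for Olfr1358 to Olfr57, -0.086 for Olfr30 to Olfr225, -0.011 for Olfr20 to Olfr412, 0.78 for Olfr722 to Olfr1507, 0.067 for Olfr288 to Olfr278-ps1, -0.23 for Olfr161 to Olfr15, 0.51 for Olfr172 to Olfr209, 0.14 for Olfr90 to Olfr136, 0.40 for Olfr1417 to Olfr1505, 0.21 for Olfr1398-ps1, 0.75 for Olfr543 to Olfr692, -0.11 for Olfr522 to Olfr542-ps1, -0.29 for Olfr372 to Olfr374 and 0.19 for Olfr160 to Olfr986. After subtraction of the flank 15 moved: 0.11 for Olfr1358 to Olfr57, 0.0015 for Olfr9 to Olfr827, 0.083 for Olfr1396 to Olfr1380, 0.10 for Olfr1379-ps1 to Olfr1374-ps1, -0.018 for Olfr1373 to Olfr1371, 0.14 for Olfr30 to Olfr225, -0.032 for Olfr20 to Olfr412, -0.17 for Olfr1370 to Olfr1359, -0.082 for Olfr161 to Olfr15, 0.10 for Olfr90 to Olfr136, 0.10 for Olfr1417 to Olfr1505, 0.043 for Olfr334-ps1 to Olfr368, 0.0025 for Olfr459 to Olfr47, -0.017 for Olfr372 to Olfr374 and -0.088 for Olfr160 to Olfr986. Clusters with a median above 0 were 5 with libraries centred on all tested peaks, a scaling added for clusters after seeing the data, against 11. Gaps of 0.5 Mb gave 26 clusters, 11 above 0. A fit of the compared groups alone gives no value for the mean of both hairpins. Low peaks have the widest errors, and near-identical receptor copies may share reads.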
